A study of Mus musculus with 12 samples.

Results

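The genes described here are 8 genes for proteins of mouse milk: the caseins Csn1s1, Csn1s2a, Csn1s2b, Csn2 and Csn3, the whey proteins Wap and Lalba, and Glycam1. They were taken by symbol from the tables of transcript estimates and of regularised log2 counts (rlog), and all 8 were found among the 34547 genes matched to the annotation. They were followed in bulk RNA-Seq of thymic epithelial cells (TEC), sorted into cortical cells (cTEC, EpCAM+CD45-Ly51+UEA1-) and medullary cells (mTEC, EpCAM+CD45-Ly51-UEA1+). Each of the 4 groups, WT mTEC, Aβ0/0 mTEC, WT cTEC and Aβ0/0 cTEC, had 3 libraries, and a library came from thymi pooled from 5 to 10 mice aged 4 to 6 weeks. Aβ0/0 mice lack MHC class II in all of their cells, since H2-Ab1, which encodes the β chain of I-A, is disrupted in the germline, while WT mice carry the intact gene. By the sort records of the study, each pool of Aβ0/0 mice gave fewer mTEC and fewer cTEC than the WT pool of its number. Every pool gave fewer cTEC than mTEC, so that WT mTEC had the most cells. The part of these cell numbers in genes found at 0 was not tested.

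Milk proteins are made in bulk by the luminal cells of the lactating mammary gland. Prolactin binds its receptor Prlr on these cells, the kinase Jak2 phosphorylates Stat5a and Stat5b, and these factors, together with Elf5 and the glucocorticoid receptor, switch on the casein and whey genes. In the thymus, mTEC also transcribe genes of distant tissues, which is called promiscuous gene expression, and show the products to developing T cells as self-antigens. The nuclear factor Aire drives a large part of these genes and Fezf2 another part.

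The libraries held between 21710319 and 36139815 estimated counts. Transcripts of H2-Ab1 ranged from 9055 to 11966 TPM (transcripts scaled by length and library total) over the 6 WT libraries and from 2469 to 3956 TPM over the 6 Aβ0/0 libraries, and reads of the disrupted gene remained, though every Aβ0/0 library lay below every WT library. The 12 marker genes of mTEC summed to 18436 to 33985 TPM in mTEC and to 2518 to 5290 TPM in cTEC, and the 11 markers of cTEC to 1883 to 2681 TPM in mTEC and 9322 to 27488 TPM in cTEC. The mTEC sum was mostly Ccl21a, a chemokine gene, at 14333 to 19881 TPM in WT and 20510.3 to 30968 TPM in Aβ0/0 mTEC. The costimulatory ligands of mature mTEC did not overlap between the genotypes: Cd80 stood at 10.8 to 18.7 TPM in WT and 2.79 to 7.19 TPM in Aβ0/0 mTEC, and Cd86 at 8.53 to 15.8 TPM and 0.063 to 0.828 TPM, and their part in the levels of the milk genes was not tested. The libraries are bulk samples, in which fewer cells that transcribe a gene and less RNA per cell cannot be told apart.

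In WT mTEC the 8 genes together made up 1063 to 1308 TPM, almost all of it Csn2. TPM are scaled by transcript length and so allow levels of different genes to be set side by side. The order of the mean levels in WT mTEC was Csn2, Csn1s2a, Csn3, Wap, Csn1s1, Csn1s2b, Glycam1 and Lalba. Csn3 and Wap overlapped in their TPM over the 3 libraries, as did Csn1s2b and Glycam1, and the other neighbours in this order did not. In Aβ0/0 mTEC the 8 genes together gave 200.2 to 367 TPM, and in cTEC 1.60 to 44.4 TPM. All 8 genes had their highest group mean in WT mTEC, both as TPM and as rlog values. At least 5 estimated counts were found for 8, 8 and 7 of the 8 genes in the 3 WT mTEC libraries, for 3, 4 and 3 in Aβ0/0 mTEC, and for 2, Csn2 and Csn3, in each of the 6 cTEC libraries.

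**Figure D1:**
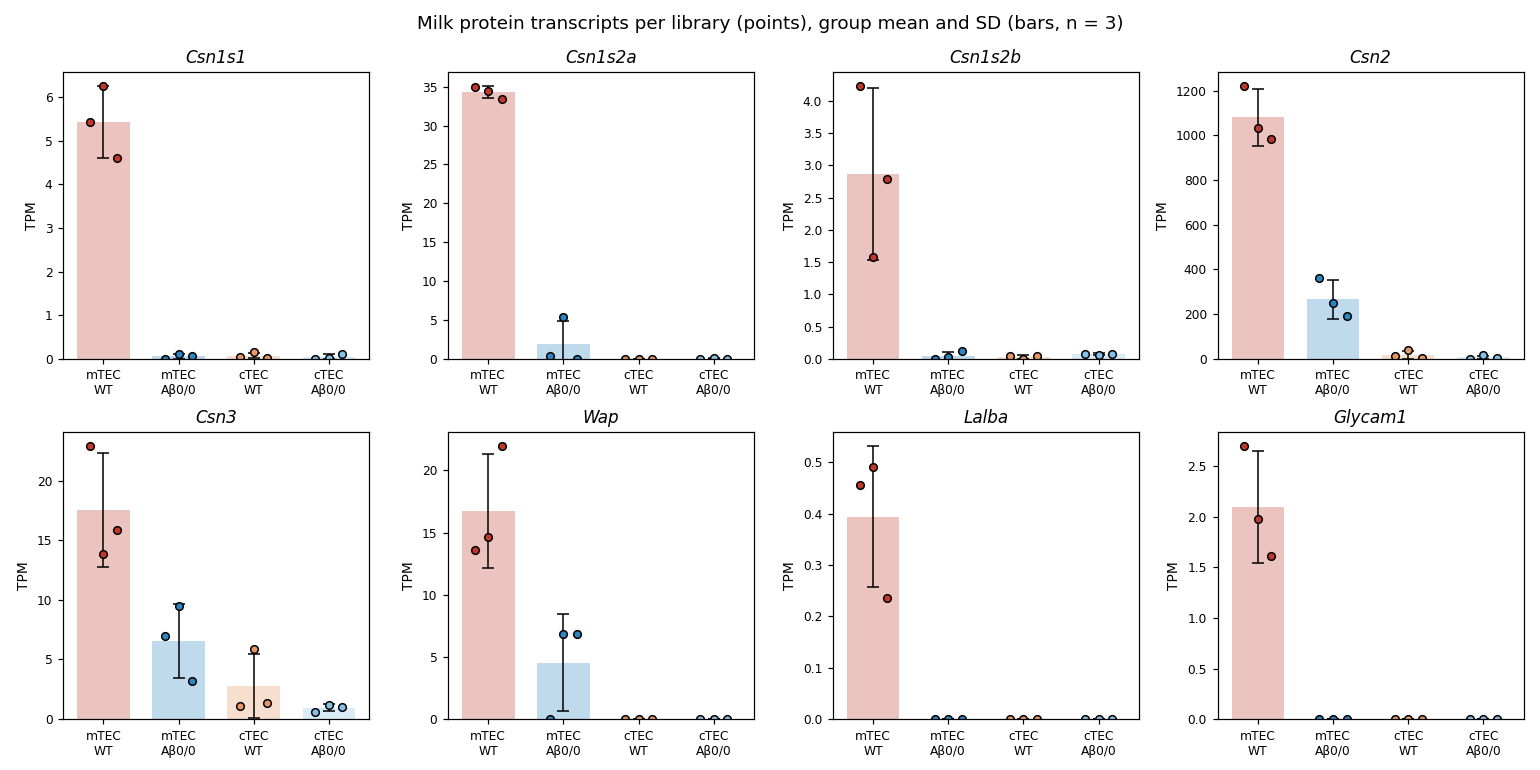
Level of each milk protein gene in TPM (vertical axes, each with its own scale) in the 4 groups. Points are the 3 libraries of a group, bars their mean and error bars the SD. All 8 genes had their highest mean in WT mTEC, and Csn2 reached 1080 TPM there against 34.3 TPM for Csn1s2a, the next in order.

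Csn2 encodes β-casein, a main building block of the casein micelle that carries calcium phosphate in milk. In WT mTEC it stood at 1223, 1035 and 983 TPM in replicates 1, 2 and 3, with a mean of 1080 ± 126 TPM (SD, n = 3), which placed it 103rd of the 26831 genes with a value above 0. Aβ0/0 mTEC held 359.7, 249.1 and 190.04 TPM, a mean of 266 ± 86.2 TPM (SD, n = 3) and place 525 of 22277 genes. The lowest WT mTEC library thus lay above the highest Aβ0/0 mTEC library, and both groups lay far above cTEC. WT cTEC had 13.8, 38.4 and 3.69 TPM and Aβ0/0 cTEC had 0.906, 15.9 and 1.91 TPM, and these ranges overlapped. Csn2 made up 94.4% to 98.2% of the casein TPM in the 6 mTEC libraries. Its protein-coding transcripts held 95.3% to 99.8% of its estimated counts in mTEC.

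Csn1s1, αs1-casein, helps to move the other caseins out of the endoplasmic reticulum. It had 106, 220 and 136 estimated counts in WT mTEC, or 5.42, 6.26 and 4.60 TPM, against 0, 4 and 1 counts in Aβ0/0 mTEC. No cTEC library held more than 4 counts of it. The few counts outside WT mTEC lay almost wholly on transcripts with a retained intron: the protein-coding transcripts of Csn1s1 held 102 to 211 counts in WT mTEC, 0 in all Aβ0/0 libraries of both subsets and at most 1 in a WT cTEC library. Its retained-intron transcript Csn1s1-206 has 11 of 1500 31-base words in common with transcripts of other genes, 2681 of them, while the protein-coding transcripts of Csn1s1 have none.

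The remaining calcium-sensitive caseins, Csn1s2a and Csn1s2b, are both of the αs2 type. Csn1s2a had 465, 779 and 693 counts in WT mTEC, and its levels of 34.99, 34.5 and 33.5 TPM were the most even of all 8 genes. In Aβ0/0 mTEC it had 6, 122 and 0 counts, so that replicate 2 alone held most of what was found, and 5 of the 6 cTEC libraries were at 0. Csn1s2b had 45, 34 and 50 counts in WT mTEC, equal to 4.24, 1.57 and 2.78 TPM, and 0, 1 and 4 counts in Aβ0/0 mTEC. The cTEC libraries held 0 to 3 counts of it. Outside WT mTEC nearly all of these counts were on the transcript Csn1s2b-202, which shares 12 of its 1638 31-base words with other genes.

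The start regions are shown because 4 of the 6 milk protein genes with a RefSeq promoter (build GRCm38.p6, 250 bases before to 50 after the start) hold the letters TTCNNNGAA, the palindromic core that Stat5 binds, against 8.30% of all 32851 promoters of that length. Csn1s2b and Csn3 had no entry. The first sequence gives the 150 bases before the start of Csn1s1 (chr5:87666058-87666207, plus strand) and the others the match with 10 bases on either side, all written 5′ to 3′ on the strand of the gene, with the match in capitals.
Csn1s1: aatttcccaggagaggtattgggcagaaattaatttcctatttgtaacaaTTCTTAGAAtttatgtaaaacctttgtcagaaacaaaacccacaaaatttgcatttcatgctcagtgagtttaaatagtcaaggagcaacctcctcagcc
Csn2: tcacgtagacTTCTTGGAAttgaagggac
Csn1s2a: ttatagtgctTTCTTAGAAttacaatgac
Glycam1: gccaactcatTTCCCAGAAacaccaattc
The Csn2 window lies at chr5:87699500-87699528 on the minus strand, that of Csn1s2a at chr5:87774460-87774488 on the plus strand and that of Glycam1 at chr15:103565208-103565236 on the minus strand. Counted from the RefSeq start, the match began at -100 in Csn1s1, at -93 in Csn2 (base 112 of the gene by the earlier GENCODE start), at -145 in Glycam1 and at 20 in Csn1s2a, whose start in GENCODE lies further along the gene so that the same match begins at -97 there. The windows of Wap and Lalba held no match of these letters. The 6 windows held 0 to 3 CG dinucleotides, against a median of 7 over all promoters. A match describes the letters only, since no binding was measured.

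Csn3, κ-casein, caps the surface of the micelle and keeps it in solution. Summed over its transcripts it had 340, 350 and 373 counts in WT mTEC, equal to 22.9, 13.9 and 15.8 TPM, and 116, 245 and 71 counts in Aβ0/0 mTEC, equal to 6.99, 9.44 and 3.22 TPM. It was also found in every cTEC library, with 17, 114 and 33 counts in WT and 11, 34 and 27 in Aβ0/0. These sums joined different transcripts. The protein-coding transcript Csn3-201 had 314, 284 and 283 counts in WT mTEC, 88.5, 153 and 2.03 in Aβ0/0 mTEC, 2.01, 87.5 and 5.54 in WT cTEC, and 0 in all 3 Aβ0/0 cTEC libraries. Transcripts with a retained intron, in most libraries Csn3-204 alone, gave 0.403 to 1.00 CPM (estimated counts scaled to the library total) in cTEC and 1.11 to 2.89 CPM in mTEC, with overlapping ranges between the genotypes in each subset. All counts of Csn3 in Aβ0/0 cTEC were on such transcripts, and in Aβ0/0 mTEC replicate 3 only 2.85% were protein-coding. Csn3-204 has 85 of its 1069 31-base words, or 7.95%, in common with 1596 other genes, against 16 of 957, or 1.67%, for Csn3-201. The antisense gene 1700066N21Rik spans Csn3, but none of its 5 exons meets an exon of Csn3.

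**Figure D2:**
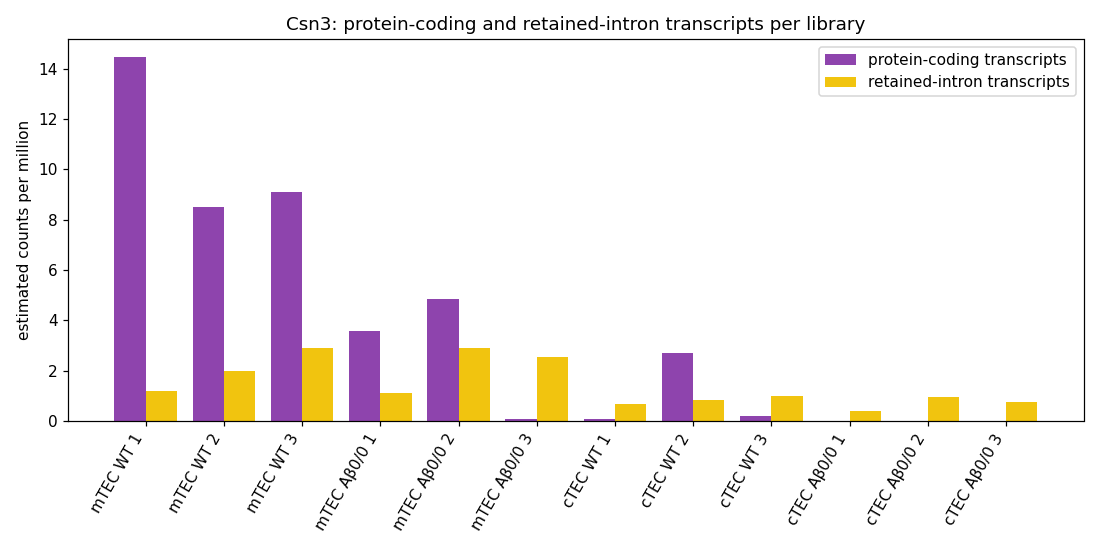
Level of Csn3 in CPM (vertical axis) in each of the 12 libraries (horizontal axis), split into protein-coding transcripts (purple) and transcripts with a retained intron (yellow). The protein-coding part ranged from 8.51 to 14.5 CPM in WT mTEC and was 0 in the 3 Aβ0/0 cTEC libraries, while the retained-intron part was above 0 in all 12.

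The whey proteins stay in solution when the caseins are removed. Wap, whey acidic protein, is a small secreted protein with disulfide-bonded WAP domains, encoded at chr11:6635482-6638637 on the minus strand. It had 100, 176 and 244 counts in WT mTEC (13.6, 14.6 and 22.0 TPM), and 0, 84 and 66 counts in Aβ0/0 mTEC (0, 6.80 and 6.80 TPM). Of the Aβ0/0 mTEC libraries, 1 thus had no count, and the highest of the 3 was still below every WT mTEC library. Wap was at 0 in all 6 cTEC libraries. Lalba, α-lactalbumin, turns a galactosyltransferase into lactose synthase and was the lowest of the 8 genes. It had 5, 9 and 4 counts in WT mTEC (0.456, 0.491 and 0.236 TPM) and none in the other 9 libraries. A total of 0 in a group allows up to 3 counts over its libraries, so that the WT mTEC level was at least 5.39-fold higher than in Aβ0/0 mTEC and at least 5.58-fold higher than in WT cTEC, by counting error alone. PCR copies were not told apart from molecules, and such limits cover counting error only.

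Glycam1 encodes a small mucin-like glycoprotein that is secreted into milk and is also made by high endothelial venules, where it carries the sugars that L-selectin binds. The gene lies at chr15:103562759-103565081. It had 23, 28 and 21 counts in WT mTEC (2.70, 1.98 and 1.61 TPM) and none in any of the other 9 libraries. The 6 markers of high endothelial venules summed to 71.9 to 93.7 TPM in WT mTEC, 2.37 to 14.3 TPM in Aβ0/0 mTEC and 0 to 6.95 TPM in cTEC. Madcam1, the mucosal addressin, made up most of that sum with 65.4 to 88.0 TPM in WT mTEC and 0.168 to 9.43 TPM in Aβ0/0 mTEC. Chst4 and Sele were at 1.02 TPM or below in WT mTEC and at 0 in the other 9 libraries, as Glycam1 was. The other 3 markers differed from it: Fut7 (1.96 TPM) and Selp (2.67 TPM) were higher in Aβ0/0 mTEC replicate 1 than in any WT mTEC library, and Ackr1 reached 4.91 TPM in Aβ0/0 mTEC replicate 2 and 6.60 TPM in WT cTEC replicate 2 against 2.06 to 5.17 TPM in WT mTEC. The part of these cells in the level of Glycam1 was not tested.

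To ask which of the 8 genes belonged to the medulla in normal mice, WT mTEC were compared with WT cTEC. All 7 genes that passed the filter on low counts were higher in WT mTEC at an adjusted p under 0.05 (edgeR quasi-likelihood test, Benjamini-Hochberg over 18667 genes), and 18% of all genes tested were called in that direction. Their 3 WT mTEC libraries also lay above the 3 WT cTEC libraries, as those of 30.1% of all genes did. Several of the 7 passed the filter through WT mTEC alone, so that this count describes them and is no separate support. Lalba was left out by the filter.

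Among the caseins, Csn2 was 68.9-fold higher in mTEC (log2 fold change 6.11 ± 0.70 SE, adjusted p = 0.00115). Csn1s1 had 462 counts against 3, a ratio of 143 (95% counting interval 48.7 to 698, adjusted p = 0.00141), and Csn1s2b had 129 against 3, a ratio of 40.02 (13.4 to 197, adjusted p = 0.0115). Csn1s2a, at 0 in all WT cTEC libraries, was at least 601-fold higher (adjusted p = 0.000494). Csn3 showed the smallest difference, 6.67-fold (log2 2.74 ± 0.68 SE, adjusted p = 0.0203). When a library was left out, the log2 difference lay between 5.68 and 7.05 for Csn2 and between 2.33 and 3.59 for Csn3. WT cTEC replicate 2 held most of the WT cTEC counts of both genes. On its protein-coding transcripts alone Csn3 had a log2 difference of 3.38 that did not pass (edgeR, adjusted p = 0.0842), and WT cTEC replicate 2 held most of the protein-coding counts in that group. Without WT mTEC replicate 1, 2 or 3 the adjusted p of Csn3 was 0.0885, 0.0646 and 0.0696 in edgeR, and without WT mTEC replicate 1 that of Csn1s2b was 0.052.

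Wap was at least 161-fold higher in WT mTEC than in WT cTEC (edgeR, adjusted p = 0.00307) and Glycam1 at least 22.3-fold (adjusted p = 0.00774). The mTEC and cTEC libraries of 1 genotype and number were taken as 1 pool, which the labels do not state. When that pool was a term of the fit as a block, 6 of the 7 genes kept an adjusted p under 0.05 in edgeR and Glycam1 did not (adjusted p = 0.0644).

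The effect of MHC class II loss was read from WT against Aβ0/0 mTEC. Of the 7 genes that passed the filter, 3 were higher in WT at an adjusted p under 0.05 (edgeR, 18636 genes tested), Csn2, Csn1s1 and Glycam1, while 5.32% of all genes tested were called higher in WT and 0.338% lower. All 7, and Lalba as well, had their 3 WT mTEC libraries above the 3 Aβ0/0 mTEC libraries, which was so for 18.2% of all genes tested. As above, genes with hardly a count in Aβ0/0 mTEC passed the filter through WT alone.

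Csn2 was 3.69-fold higher in WT than in Aβ0/0 mTEC (log2 1.88 ± 0.23 SE, edgeR adjusted p = 0.0352). Csn1s1 had 462 counts in WT against 5, a ratio of 83.1 (95% counting interval 35.3 to 257, adjusted p = 0.0468), and Glycam1 was at least 21.6-fold higher (adjusted p = 0.0352). The other 4 did not pass the threshold. Csn1s2b had 129 counts against 5, a ratio of 23.2 (9.69 to 72.6, adjusted p = 0.105), and Csn1s2a had a log2 difference of 3.83 ± 1.62 SE (adjusted p = 0.326) with the 122 counts of Aβ0/0 replicate 2 as the exception within its group. Csn3 had 1.20 ± 0.62 (adjusted p = 0.444) and Wap 1.65 ± 1.53 (adjusted p = 0.733), both on the log2 scale. For Csn3 and Wap the 95% intervals of the log2 difference, -0.01 to 2.41 and -1.35 to 4.65, still held differences as large as that of Csn2.

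These 3 calls did not hold in most other fits. With the replicate number as a block none of the 3 passed (edgeR, adjusted p = 0.106 for Csn2, 0.23 for Csn1s1 and 0.23 for Glycam1). With that block no gene of the whole table passed, so that the calls given further on for other genes in WT against Aβ0/0 mTEC, Aire among them, were lost too. None of the 3 passed with a mean of at least 10 counts as the filter or with all 12 libraries in 1 fit, and without a filter only Csn2 did. Without any 1 of the 3 WT mTEC libraries no gene of the whole table passed, and the adjusted p in edgeR was then 0.13 to 0.138 for Csn2, 0.148 to 0.172 for Csn1s1 and 0.13 to 0.138 for Glycam1. Without Aβ0/0 replicate 1 all 3 remained under 0.05, without replicate 2 Csn2 alone did, and without replicate 3 none did (adjusted p = 0.069 for Csn2, 0.101 for Csn1s1 and 0.0836 for Glycam1). When a library was left out, the log2 difference of Csn2 lay between 1.69 and 2.00 and that of Csn1s1 between 5.76 and 7.76. DESeq2 called Csn2, Csn1s1 and also Csn1s2b (adjusted p = 0.0421), but not Glycam1 (adjusted p = 0.0672).

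**Figure D3:**
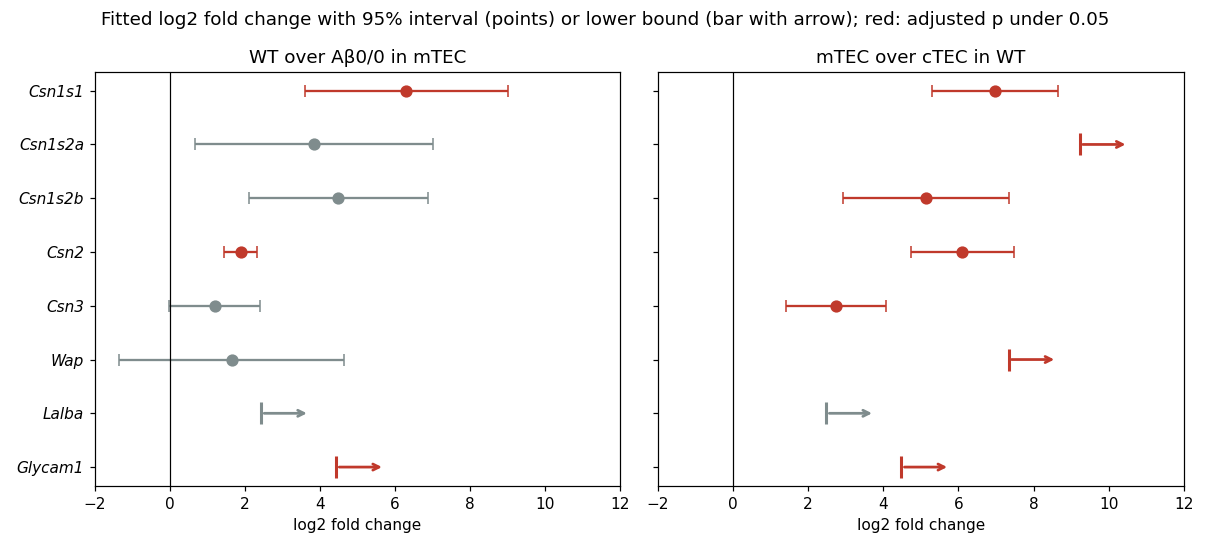
Log2 fold change (horizontal axes) of each milk protein gene for WT over Aβ0/0 in mTEC (left) and mTEC over cTEC in WT (right). Points with error bars are fitted values with their 95% interval (1.96 SE to either side, too narrow for so few libraries). A vertical tick with an arrow is a lower bound where the other group had no count. Red marks an adjusted p under 0.05. All 7 tested genes are red on the right, and Csn1s1, Csn2 and Glycam1 on the left.

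In Aβ0/0 mice, mTEC were again compared with cTEC. Only Csn2 and Csn3 passed the filter, and Csn2 was 43.9-fold higher in mTEC (log2 5.46 ± 1.15 SE, edgeR adjusted p = 0.0375, and 0.0434 with pools as a block), in a comparison where 3.45% of 15687 genes were called higher and 2.15% lower in mTEC. Csn3 had a log2 difference of 2.87 ± 1.18 SE (adjusted p = 0.253). Both had their 3 mTEC libraries above the 3 cTEC libraries, as 15.1% of genes did. When a library was left out, the log2 difference of Csn2 lay between 4.91 and 7.79. Its counts in Aβ0/0 cTEC were 14, 424 and 52 in replicates 1, 2 and 3. The call of Csn2 was lost without Aβ0/0 cTEC replicate 1 or 3 (adjusted p = 0.0586 and 0.12) and without Aβ0/0 mTEC replicate 1, 2 or 3 (adjusted p = 0.0806, 0.0941 and 0.0828), and DESeq2 gave it no adjusted p. Of the genes left out by the filter, Wap had 150 counts in Aβ0/0 mTEC against 0, a level at least 61.2-fold higher by counting error alone, and Csn1s2a had 128 against 2, a ratio of 78.3 (21.2 to 653), with 122 of the 128 counts in replicate 2. Csn1s1 and Csn1s2b were at 5 counts in Aβ0/0 mTEC against 5 and 6 in Aβ0/0 cTEC, with ratios of 1.22 (0.28 to 5.31) and 1.02 (0.25 to 4.01).

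Between WT and Aβ0/0 cTEC neither Csn2 nor Csn3 passed the test (edgeR, 15432 genes tested, of which 0.0194% were called), and neither had an unadjusted p under 0.05. DESeq2 called neither. Csn2 had a log2 difference of 1.28 ± 1.18 SE and Csn3 of 1.37 ± 1.18 SE, and in both groups replicate 2 held the highest count of either gene. In plain CPM, Csn2 in a cTEC library was 0.995%, 2.79% and 0.43% of its level in the mTEC library of the same genotype and number in WT, and 0.199%, 5.29% and 0.956% in Aβ0/0. Over the 12 mTEC markers the median of that share was 5.05% to 17.1% in the 6 pairs, and for Aire it was 0.2% to 2.40%. The part of mTEC RNA in the cTEC levels of Csn2 was not tested.

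Whether the genotype effect differed between the subsets was tested with an interaction over all 12 libraries. None of the 7 genes tested passed (edgeR, 19461 genes, of which 0.0103% were called), while 2 had an unadjusted p under 0.05, Csn1s1 (adjusted p = 0.427) and Csn1s2b (adjusted p = 0.588). In DESeq2 none passed and 3 had an unadjusted p under 0.05. Csn2 had an interaction of 0.64 ± 1.25 SE and Csn3 of -0.14 ± 1.16 SE on the log2 scale, with intervals of -1.80 to 3.09 and -2.41 to 2.13. Without Aβ0/0 cTEC replicate 2 the value of Csn2 was -1.70 (edgeR, adjusted p = 0.869). That of Csn3 was -6.10 on its protein-coding transcripts alone (edgeR, adjusted p = 0.711), of which Aβ0/0 cTEC held 0 counts.

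The casein genes lie together on chromosome 5, at chr5:87666208-87932665 (GRCm38), a span of 266 kb in the order Csn1s1, Csn2, Csn1s2a, Csn1s2b and Csn3. The annotation has 9 other genes that overlap this span, of which 1700066N21Rik runs past its end. Of these, Gm25066, Gm24314, Gm42794, 1700066N21Rik and BC037156 were not among the transcripts analysed here. Odam, which encodes a secreted protein of the tooth attachment, sits between Csn1s2b and Csn3 and had 81, 122 and 108 counts in WT mTEC and 0 in the other 9 libraries (WT against Aβ0/0 mTEC, edgeR adjusted p = 0.0352). Prr27 had 25 counts in WT mTEC replicate 1 and none elsewhere, and the pseudogene Gm42845 had 5 counts in that same library. The pseudogene Gm7337 had 1 to 7 counts in all 12 libraries, with no group apart.

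Odam, and Sult1e1 and Smr3a among the genes just outside the caseins, had no count in Aβ0/0 mTEC and so passed the filter on low counts through WT alone. The estrogen sulfotransferase gene Sult1e1 showed 135, 141 and 106 counts in WT mTEC, 0 in Aβ0/0 mTEC and at most 1 in cTEC (edgeR, WT against Aβ0/0 mTEC, adjusted p = 0.0352). The salivary gene Smr3a on the other side had 47, 94 and 108 counts in WT mTEC and 0 elsewhere (adjusted p = 0.0352). Sult1d1, further out than Sult1e1, kept 135, 0 and 253 counts in Aβ0/0 mTEC against 157, 198 and 269 in WT (adjusted p = 0.939). Gm43368 had at most 1 count in a library, 2310003L06Rik had 2, 1 and 39 counts in WT mTEC and at most 1 elsewhere, and Cabs1 had 12, 2 and 1 and none elsewhere. Along this stretch, Csn2, Csn1s2a and Csn3, the highest of the caseins in WT mTEC, still had means of 266, 1.92 and 6.55 TPM in Aβ0/0 mTEC, that of Csn1s2a resting on replicate 2 (5.34 TPM against 0.42 and 0). Sult1d1 had a mean of 3.41 TPM there, while Csn1s1, Csn1s2b, Odam, Sult1e1 and Smr3a were at 0.0561 TPM or below.

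**Figure D4:**
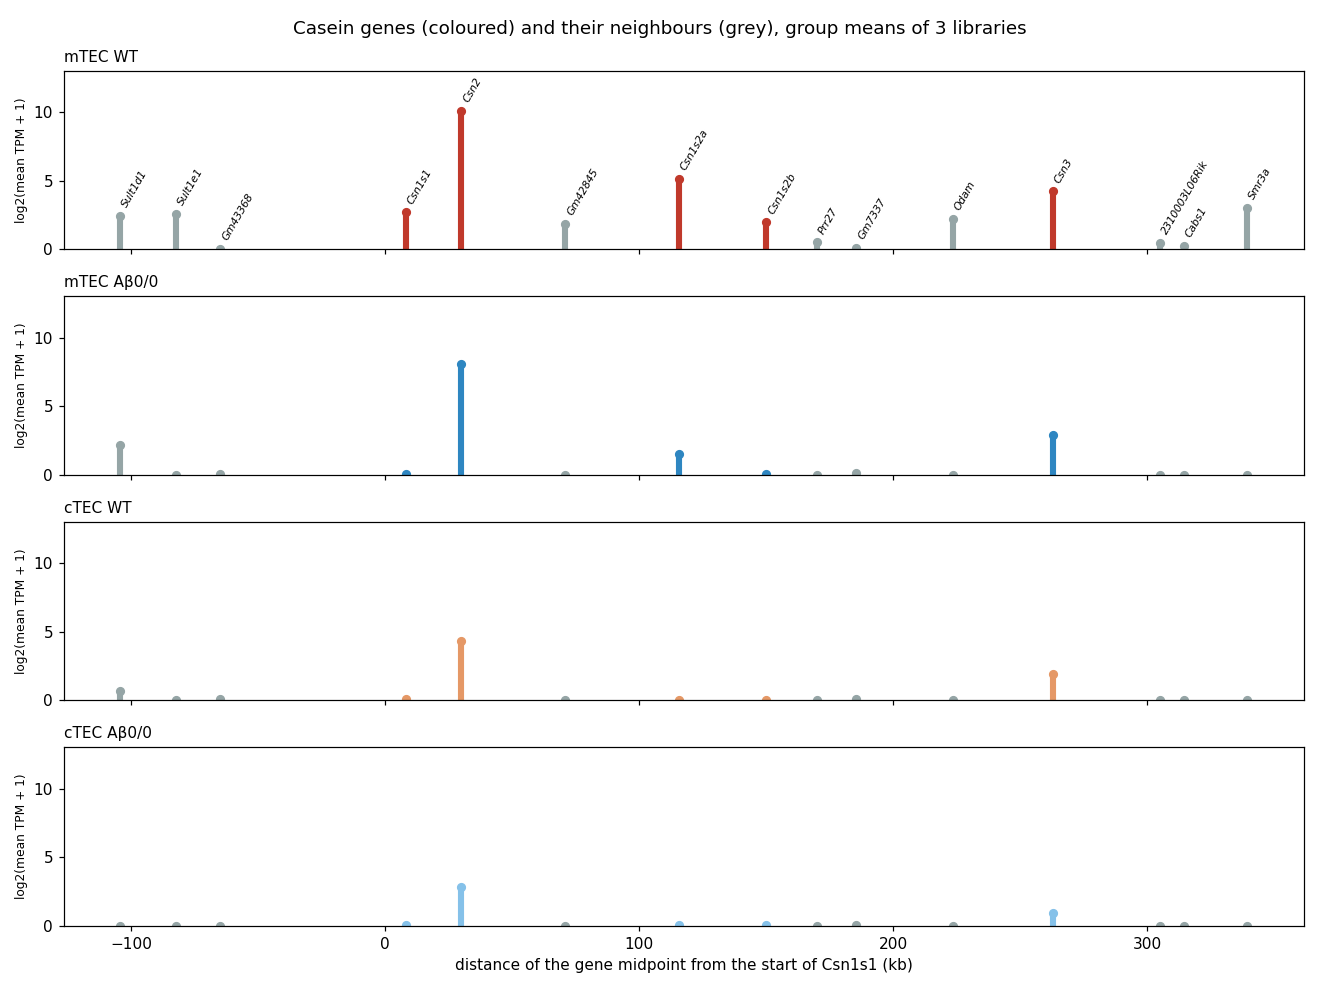
Mean level of the casein genes (coloured) and of their neighbours (grey) as log2(TPM + 1) of the group mean (vertical axes) against the distance of the gene's midpoint from the start of Csn1s1 in kb (horizontal axis), with a panel for each of the 4 groups (n = 3 libraries). Odam, Sult1e1 and Smr3a stand above 0 in WT mTEC and at or close to 0 in the other panels, where Csn2 and Csn3 are still seen.

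The known regulators of milk genes were read in the same comparisons. Of 22 regulators of lactation, 21 were tested in WT against Aβ0/0 mTEC and none passed (edgeR, 2 with an unadjusted p under 0.05, and 1, the ligand gene Wnt4, called by DESeq2), beside 5.32% of all genes higher and 0.338% lower, so that a count of 0 among 21 sets little apart, with a median log2 difference of -0.12 beside 0.00257 over all genes. Prlr, the prolactin receptor, stood at 7.23, 4.91 and 3.27 TPM in WT mTEC and at 8.67, 9.21 and 1.07 TPM in Aβ0/0 mTEC, which overlapped (adjusted p = 0.777). Stat5a had 104, 57.4 and 62.0 TPM in WT mTEC and 88.5, 49.5 and 67.3 TPM in Aβ0/0 mTEC (adjusted p = 0.912). Stat5b ranged from 9.31 to 21.1 TPM in WT mTEC and from 1.01 to 21.4 TPM in Aβ0/0 mTEC (adjusted p = 0.826). Elf5, a factor of luminal milk-producing cells, had 5.99, 3.46 and 4.92 TPM in WT mTEC and 1.98, 0.617 and 0.879 TPM in Aβ0/0 mTEC, groups that did not overlap in TPM, but its summed counts did not pass the test (log2 0.91, adjusted p = 0.686).

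Between the subsets in WT, 11 of the 21 tested regulators of lactation passed, 6 higher and 5 lower in mTEC, where 8.81% of all genes were called lower and 18% higher. Stat5a (log2 2.78), Tnfrsf11a (4.61), the receptor RANK, and Areg, an epidermal growth factor receptor ligand at 0 in WT cTEC that passed the filter through mTEC alone, were higher in mTEC, and the nuclear factor Nfib (-2.92) and the glucocorticoid receptor Nr3c1 (-1.67) were lower. Prlr, with 2.87, 4.30 and 1.97 TPM in WT cTEC, was also higher in mTEC (log2 1.33, edgeR adjusted p = 0.0331). In Aβ0/0 mice, 4 of 19 tested passed, beside 3.45% of all genes higher and 2.15% lower: Socs2 (3.93) and Tnfrsf11a (4.78) were higher and Nr3c1 (-1.45) and Nfib (-2.03) lower in mTEC.

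Of the factors of promiscuous gene expression, Aire stood at 626, 275 and 243 TPM in WT mTEC and at 111, 56.0 and 65.2 TPM in Aβ0/0 mTEC, with a log2 difference of 2.17 (edgeR, adjusted p = 0.0352, not called with the replicate block). Fezf2 had 291, 236 and 215 TPM against 142, 161 and 127 TPM (log2 0.63, adjusted p = 0.208). In cTEC, Aire ranged from 0.199 to 7.87 TPM and Fezf2 from 2.27 to 6.53 TPM. Of the 20 genes of that list, all tested, 3 were higher in WT than in Aβ0/0 mTEC, Sirt1 (log2 1.96), Irf8 (1.26) and Aire, and none lower, with a median of 0.30 and beside 5.32% of all genes higher and 0.338% lower. In mTEC against cTEC in WT 8 were higher and 3 lower, beside 18% and 8.81% of all genes, the costimulatory receptor Cd40 (3.88), Fezf2 (5.53), Aire (6.51), Relb (1.88) and Sirt1 (2.15) by smallest p, with a median of 0.54, and in Aβ0/0 4 were higher, beside 3.45% of all genes, Fezf2 (5.36), Aire (7.69), Tnfrsf11a, which both lists hold, and Nfkb2 (1.47).

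**Figure D5:**
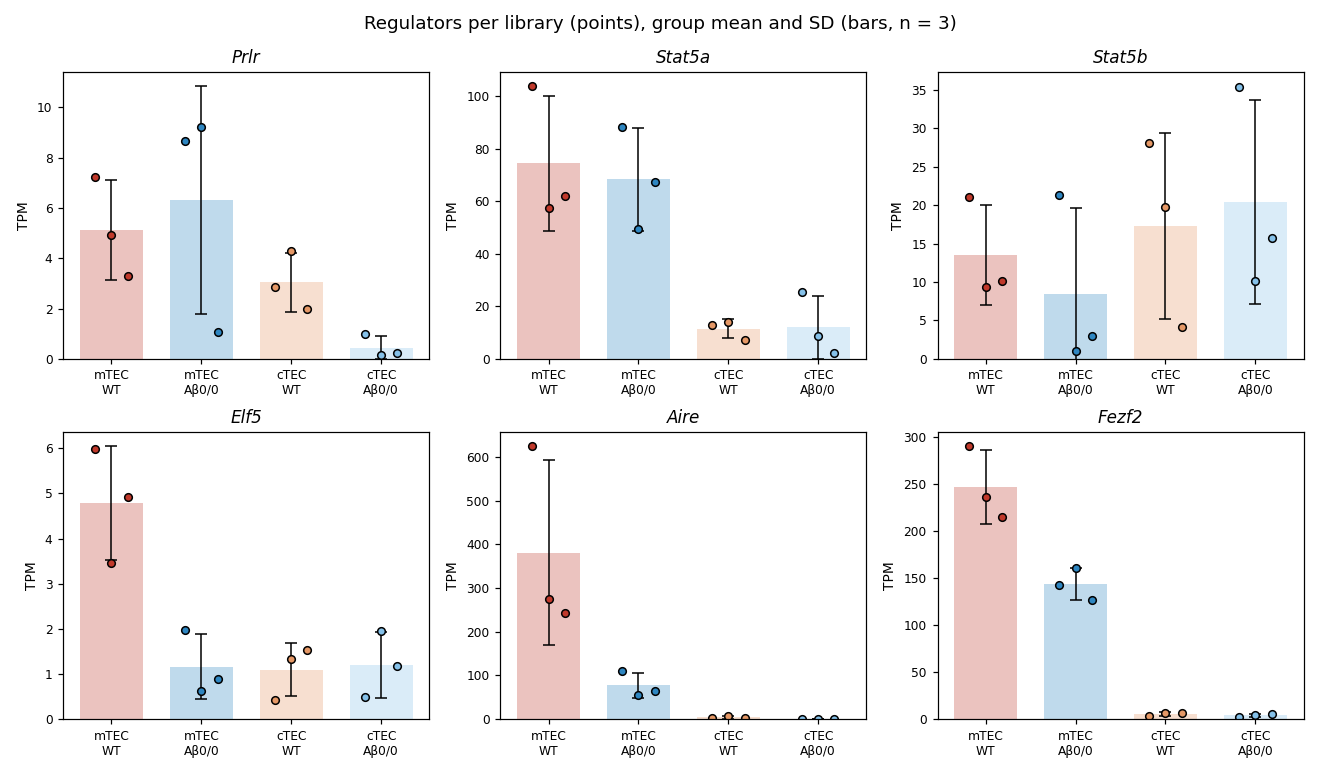
Level in TPM (vertical axes, each with its own scale) of the milk gene regulators Prlr, Stat5a, Stat5b and Elf5 and of Aire and Fezf2 in the 4 groups. Points are libraries, bars the mean and error bars the SD (n = 3). Prlr, Stat5a and Stat5b overlapped between WT and Aβ0/0 mTEC, while Elf5, Aire and Fezf2 did not.

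Other products of the lactating gland were also present. Of 30 genes for milk fat globule proteins, milk transport and lactation enzymes, 29 were tested in mTEC and 3 were higher in WT than in Aβ0/0, with none lower and a median log2 difference of 0.29, beside 5.32% of all genes higher and 0.338% lower. They were Thrsp, a regulator of fat synthesis with 66.7, 74.2 and 48.05 TPM against 22.9, 12.3 and 18.6 TPM (edgeR, adjusted p = 0.0352), Olah, the thioesterase that ends medium-chain fatty acids, which was at 0 in all Aβ0/0 mTEC libraries (adjusted p = 0.0454), and Fabp3, a fatty acid binding protein with 34.95, 27.2 and 24.8 TPM against 0.921, 0 and 0.128 TPM (adjusted p = 0.0468). Olah and Fabp3 passed the filter through WT alone, so that their direction was close to fixed and their calls are no separate support. In WT, 17 of 29 were higher and 2 lower in mTEC than in cTEC, beside 18% and 8.81% of all genes. Olah, Cel, Atp2b2, Folr1 and Fabp3, with at most 18 counts in a WT cTEC library, passed the filter through WT mTEC alone, so that the count describes the list and is no support. Among these were the phosphate transporter Slc34a2 (log2 3.54), lactoperoxidase Lpo (5.68), Pthlh (4.23), Wfdc18 (4.24), and Xdh (-2.93), the enzyme that coats milk fat droplets, which was lower. In Aβ0/0 8 of 24 were higher and 1 lower in mTEC, beside 3.45% and 2.15% of all genes, with Pthlh (4.48), Slc34a2 (6.85), Wfdc18 (5.36), Scd1 (2.73) and Lpo (3.92) first by p.

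The caseins belong to the family of secretory calcium-binding phosphoproteins, which also holds proteins of bone, enamel and saliva. Of 17 relatives listed, 15 were found and 8 tested in WT against Aβ0/0 mTEC. Odam, Smr3a, the bone sialoprotein gene Ibsp and the enamel gene Ambn were higher in WT and at 0 in every Aβ0/0 mTEC library (edgeR, adjusted p = 0.0352, 0.0352, 0.0352 and 0.0396). None of the tested relatives was lower, beside 5.32% of all genes higher and 0.338% lower. All 4 passed the filter on low counts through WT mTEC alone, so that their direction was close to fixed, and their count is no support for the family. Odam and Smr3a are counted both here and among the neighbours. In WT mTEC against WT cTEC 6 of 9 were higher, Amtn, Spp1 (log2 4.30), Odam, Ibsp and Ambn first by p, and Sparcl1 was lower. Of all genes 18% were called higher there and 8.81% lower. Odam, Ibsp and Smr3a, at 0 in WT cTEC, and Amtn and Ambn, with 1 count there, passed the filter through WT mTEC alone. The direction of 5 of the 6 was thus close to fixed, and their count is no support. In Aβ0/0 2 were tested and neither passed (1 with an unadjusted p under 0.05, and Sparcl1 called by DESeq2). Of all genes 3.45% were higher and 2.15% lower in Aβ0/0 mTEC. In WT against Aβ0/0 cTEC and in the interaction no gene of any list passed in edgeR, with 0 to 3 and 0 to 4 genes of a list at an unadjusted p under 0.05, and DESeq2 called none in cTEC and 0 to 3 of a list in the interaction.

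Markers of other cells were also followed beside the milk genes. The 14 markers of mammary luminal and basal epithelium, many of which TEC share, summed to 5445 to 6218 TPM in WT mTEC, 5289 to 7707 TPM in Aβ0/0 mTEC and 4746 to 9406 TPM in cTEC, so that the sum, mostly keratins, was not highest in WT mTEC. Single markers differed in direction. Elf5 was highest in WT mTEC, with 3.46 to 5.99 TPM against at most 1.98 TPM in the other libraries. Esr1 was lower there (2.45 to 3.07 TPM) than in Aβ0/0 mTEC (3.94 to 7.35 TPM), as were Acta2 (326 to 413 against 642 to 686 TPM) and Trp63 (50.5 to 69.2 against 85.1 to 126 TPM), and Pgr was lower in WT mTEC (0.5 to 1.40 TPM) than in cTEC (3.21 to 8.14 TPM). The 8 markers of granulocytes summed to 1405 to 2007 TPM in WT mTEC, 187 to 426 TPM in Aβ0/0 mTEC and 24.3 to 510.5 TPM in cTEC, most of it S100a8 in WT mTEC. Ngp and Retnlg were at 0 in all Aβ0/0 mTEC and WT cTEC libraries. Ltf, with 38.4 to 103 TPM in WT mTEC, reached 154 TPM in Aβ0/0 mTEC replicate 1 and 167 TPM in WT cTEC replicate 1. Elane was at 0 in Aβ0/0 mTEC and at most 0.411 TPM in WT mTEC, but at 55.2 TPM in WT cTEC replicate 1. Endothelial markers summed to 43.4 to 72.2 TPM in WT mTEC and 12.6 to 33.4 TPM in Aβ0/0 mTEC, against 26.8 to 137 TPM in cTEC. Those of dendritic or B cells summed to 32.0 to 47.4 TPM in WT mTEC, 11.4 to 32.5 TPM in Aβ0/0 mTEC and 9.19 to 44.8 TPM in cTEC. Fibroblast markers were at 127 to 276 TPM in mTEC and 1698 to 2579 TPM in cTEC, thymocyte markers at 26.8 to 160 TPM and 267 to 860 TPM, erythroid markers at 75.5 to 567 TPM and 0.678 to 743 TPM. Epithelial markers were at 2897 to 7927 TPM in all groups. Their part in the levels of the milk genes was not tested.

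The genes whose level followed that of Csn2 most closely over the 12 libraries were found by Pearson's r of log2(CPM + 1) among 16141 genes. They were Hdc, histidine decarboxylase (r = 0.989), Ctsh, the protease cathepsin H (0.982), Cadps (0.978), Marc1 (0.976) and Ncf1 (0.975), none of them a milk gene. Hdc had means of 498, 109, 6.63 and 2.34 CPM in WT mTEC, Aβ0/0 mTEC, WT cTEC and Aβ0/0 cTEC. The closest gene to Csn1s1 was Ngp, of neutrophil granules (r = 0.999), to Csn1s2a it was Gip, the gut hormone GIP (0.997), to Csn3 Phactr3 (0.978) and to Wap Speer4d (0.983). The 12 points fall into the 4 groups, which differ in level, and share their libraries.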

How the data were processed

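RNA of sorted cTEC and mTEC was made into poly-A libraries with the SMART-Seq v4 low input kit, which does not mark the strand, and sequenced in pairs. Per the labels, the submitters' processing notes name bcl2fastq 2.20.0, Trim Galore, kallisto 0.43, DESeq2 and the build mm10. The deposited estimated counts and TPM were made by the authors with kallisto for each transcript. The deposited log2 values are the authors' rlog table per gene symbol, whose 12 columns each matched their own library best.

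Transcripts were joined by identifier to GENCODE M21 (GRCm38), and 0.45% to 0.512% of the counts, on unmatched transcripts, were not used. For each gene the estimated counts of its transcripts were added up and rounded. No column of another sample was in the tables (0). Groups were compared in R 4.3.3 by edgeR 4.0.16 and its quasi-likelihood test (robust, TMM, filterByExpr, Benjamini-Hochberg threshold 0.05) on the 6 libraries of a comparison, and the interaction on all 12. The scripts were tested on simulated data. DESeq2 1.42.0, RLE size factors, no filter, a mean of at least 10 counts, a replicate block, 1 fit of all libraries and leaving out each library were alternatives, and counts of protein-coding transcripts alone were added after the estimates were seen. Ratios of group totals carry exact conditional intervals of 95%, and a group at 0 was given 3 counts over the group. Intervals of a log2 difference reach 1.96 SE to either side. This normal quantile makes no allowance for the few libraries, so that these intervals are too narrow. Levels were computed in Python 3.11.15 (pandas 2.3.3, scipy 1.17.1, numpy 2.4.6) and drawn with matplotlib 3.10.9.

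The 8 genes, the gene lists, the markers and the tests were chosen with earlier results of these data known. Named are the 8 genes, up to 5 called genes of a list and comparison by smallest p (1 is not reported here), Prlr, Stat5a, Stat5b, Elf5, Aire and Fezf2, all genes between the outer caseins with the 3 genes with a count on either side, and, by correlation, the 5 genes nearest to Csn2 and the nearest to each other gene with a mean of at least 1 CPM. The study gives the number of cTEC and mTEC from each sort, so libraries of 1 genotype and number were taken as 1 pool. After subtraction of the group mean, the 2 libraries of a pool correlated over 16141 genes with r = 0.305, 0.0124 and 0.148 in WT and 0.292, 0.139 and 0.0395 in Aβ0/0. No pair of libraries was identical, and p values measure the spread between pools.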

Additional observations from a re-analysis of the deposited data

How the results depend on the processing

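The number of milk genes called moved by more than 1.5 times in 2 comparisons. In WT against Aβ0/0 mTEC it was 3 in the main fit, 1 without a filter (Csn2), 0 with a mean of at least 10 counts, 0 with all 12 libraries in 1 fit and 0 with the replicate block, and it ranged from 0 to 3 when a library was left out. The count over all genes moved with it, from 1054 to 27, 11, 20 and 0 genes in that order, to 1782 in DESeq2, and from 0 to 2377 when a library was left out. In mTEC against cTEC in Aβ0/0 it was 1, but 0 in DESeq2, which gave Csn2 no adjusted p, 0 on protein-coding transcripts (Csn2, edgeR adjusted p = 0.0508), and 0 to 1 when a library was left out, while the count over all genes went from 878 to 2042 in DESeq2, 1819 with all 12 libraries, 565 on protein-coding transcripts and 338 to 456 without a library. In mTEC against cTEC in WT it ranged from 5 to 7 in all alternatives, over 2760 to 7572 genes against 4997. It stayed at 0 in the other comparisons, where 3 genes were called in cTEC and 2 in the interaction against 61 and 268 in DESeq2, 0 and 0 with the block, and 1 to 3 and 1 to 18 without a library. For cTEC the count was 16 with all 12 libraries, 7 without a filter and 1 on protein-coding transcripts.

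The study's sort table puts WT and Aβ0/0 under 1 replicate number, without saying that they shared a sort. Their deviations had correlations of 0.351, 0.155 and 0.0807 in mTEC and 0.304, -0.11 and 0.0159 in cTEC, and 6 of 6 mTEC but 2 of 6 cTEC libraries correlated best with their own number. With that block the 3 calls in mTEC went to 0. The pool block changed no other call than that of Glycam1. Signs turned only in the interaction, all without a call: Csn2 was -0.012 with the replicate block and ranged from -1.70 (without Aβ0/0 cTEC replicate 2) to 1.63 when a library was left out. Csn3 ranged from -0.50 to 0.80 when a library was left out, and was 0.21 with the replicate block. It was 0.80 without WT cTEC replicate 2, 0.19 without Aβ0/0 cTEC replicate 1 and 0.43 without Aβ0/0 mTEC replicate 2. On its protein-coding transcripts alone Csn3 stood far lower, at -6.10 (edgeR, adjusted p = 0.711). The causes were not tested. With 0 to 5 counts in most groups, the depth cannot show differences of Lalba, Glycam1, Csn1s1 or Csn1s2b between the groups other than WT mTEC.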

Other observations

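Relatives of Wap and Lalba were also read, of which Wfdc18 is counted among the lactation genes too. Of 23 genes with WAP domains, 22 were found and 14 tested in WT against Aβ0/0 mTEC. Of the 14, Wfdc15b (9.84, 13.5 and 10.7 TPM in WT) and Wfdc10 (2.80, 4.87 and 1.72 TPM) were higher in WT (edgeR, adjusted p = 0.0352 and 0.0363). These 2 genes were at 0 in all 3 Aβ0/0 mTEC libraries. None of the 14 was lower, with a median log2 difference of 0.58, beside 5.32% of all genes higher and 0.338% lower. Both passed the filter on low counts through WT alone, so that their direction was close to fixed, and neither was called with the replicate block. Wfdc18, by far the highest at 5548 to 9971 TPM in WT mTEC, had 8500 to 17219 TPM in Aβ0/0 mTEC (adjusted p = 0.347). In WT mTEC against cTEC 6 of 12 were higher, beside 18% of all genes, Slpi (log2 4.32), Wfdc18, Wfdc21 (5.94), Wfdc10 and Wfdc3 (3.55) first by p. In Aβ0/0 4 of 10 were higher, beside 3.45% of all genes, Wfdc21 (10.8), Wfdc18, Wfdc17 (7.14) and Wfdc16. Wfdc10 in WT, and Wfdc16 and Wfdc21 in Aβ0/0, had 0 or 1 count in cTEC and passed the filter through mTEC alone. So did Wfdc3 in WT (3 counts in each cTEC library) and Wfdc17 in Aβ0/0 (1, 4 and 56 counts in cTEC). The same held for Wfdc21 in WT, with 26, 25 and 2 counts in cTEC. The numbers of called genes thus describe the list and are no support.

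Lalba descends from a lysozyme. Of its 7 relatives listed, 4 were tested in WT against Aβ0/0 mTEC and none passed (edgeR, 0 with an unadjusted p under 0.05 in edgeR or DESeq2, and a median of 1.01). Beside 5.32% of all genes higher and 0.338% lower, a count of 0 among 4 sets little apart. Lyz1 and Lyz2 had 341 to 409 and 585 to 626 TPM in WT mTEC and 232 to 1009 and 104 to 740 TPM in Aβ0/0 mTEC. Against cTEC 3 were tested in each genotype. Lyz1 (log2 4.09) and Lyz2 (2.17) were higher in WT mTEC, beside 18% of all genes, and Lyz1 (6.81) in Aβ0/0 mTEC, beside 3.45%.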
